A study of Mus musculus with 8 samples.

Results

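The 39 mouse Hox genes were examined in mesenchymal stem/progenitor cells (MSPCs) of the bone marrow. They were taken as every row of the count table whose Ensembl identifier maps to a symbol made of Hoxa, Hoxb, Hoxc or Hoxd and a number, which gave 39 of the 52636 genes listed. RNA was sequenced from 8 C57BL/6 mice, 4 of genotype Flk2-cre+ Cxcr4fl/+ (CTR) and 4 of genotype Flk2-cre+ Cxcr4fl/fl (cKO), with 1 library per mouse. The labels give an age of 6 weeks for every mouse, whereas the methods of the study give an older range. Both genotypes carried Flk2-cre, a transgene on the Y chromosome that deletes floxed alleles in hematopoietic multipotent progenitors and their progeny, so that CTR mice keep 1 Cxcr4 allele in those cells. Both also carried a green fluorescent protein (GFP) read out from the stem cell factor (SCF) locus, Kitl. The study names mice with this allele Kitl GFP/+ and uses it to lower SCF protein. In cKO mice with this allele, the paper reports membrane SCF on niche cells and stem cell numbers at control levels. Marrow cells were flushed from long bones in a medium with collagenase and then digested. MSPCs were sorted in 2 rounds as PDGFRα+ SCF-GFP+ cells without surface CD31 or CD144 (endothelial) and without Ter119 or CD45 (blood lineages). By design, MSPCs were not deleted for Cxcr4 themselves. Polyadenylated RNA of the whole sort was counted, so that fewer cells with a transcript and less of it per cell cannot be told apart.

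Hox genes encode homeodomain transcription factors that lie in 4 clusters, each of which descends from a shared ancestral cluster. Members at the same place in their cluster form paralog groups, numbered 1 to 13. During development the low-numbered (anterior) genes are activated first and nearest the head, and the high-numbered (posterior) genes later and nearer the tail or the tip of the limb. Mesenchymal cells of the adult skeleton keep much of the combination they acquired in the embryo, which is why Hox expression is read as a record of position. Polycomb complexes keep unused parts of a cluster silent, Trithorax complexes keep used parts active, and TALE homeodomain proteins of the Pbx and Meis families bind DNA together with Hox proteins.

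Total counts per library were between 31047344 and 38216877, and 18366 to 20684 genes had a count in a library. The 10 MSPC markers examined were all detected in every library, among them Lepr (117089 to 176756 counts) and Cxcl12 (1294897 to 1649629). Of the markers that the sort selects against, Ptprc, which encodes CD45, had 0 to 32 counts, Pecam1 (CD31) had 0 to 52 and Cdh5 (CD144) had 0 to 20. Other transcripts of blood cells were present at low levels, with the hemoglobin genes Hbb-bs at 949 to 3713 and Hba-a1 at 578 to 2003 counts, the erythroid gene Slc4a1 at 239 to 1112, and the myeloid genes S100a9 at 263 to 998 and Lyz2 at 141 to 900. Counts of the targeted gene Cxcr4 were 4 to 19 (CTR) and 0 to 12 (cKO), and as it is deleted in other cells these counts do not check the genotypes. The titles carry a number of unstated meaning that falls into 26 to 32 (CTR2, CTR4, cKO2 and cKO4) and 67 to 86 (CTR1, CTR3, cKO1 and cKO3), with 2 libraries of each genotype per range.

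Because paralogs in different clusters are related copies, the sequences that tell them apart were examined first. The homeobox, the 180-base stretch that encodes the DNA-binding domain, was found in the transcripts of all 39 members in the GENCODE M21 annotation. Paralog group 10 is shown because it holds the most abundant member, Hoxa10, and a member without any count, Hoxd10. In the stretches below, read 5′ to 3′ on the coding strand, capitals mark the 50 of 180 positions that are not the same in all 3 genes.
Hoxa10: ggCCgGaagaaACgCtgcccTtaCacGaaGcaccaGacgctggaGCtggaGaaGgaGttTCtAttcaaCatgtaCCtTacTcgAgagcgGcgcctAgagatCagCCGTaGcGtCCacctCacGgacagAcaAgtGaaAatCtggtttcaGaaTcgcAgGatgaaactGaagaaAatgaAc
Hoxc10: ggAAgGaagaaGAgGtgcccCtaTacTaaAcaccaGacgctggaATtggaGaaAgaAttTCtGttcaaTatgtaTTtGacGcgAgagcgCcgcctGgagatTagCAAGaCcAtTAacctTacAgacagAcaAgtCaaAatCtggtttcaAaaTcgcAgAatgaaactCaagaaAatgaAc
Hoxd10: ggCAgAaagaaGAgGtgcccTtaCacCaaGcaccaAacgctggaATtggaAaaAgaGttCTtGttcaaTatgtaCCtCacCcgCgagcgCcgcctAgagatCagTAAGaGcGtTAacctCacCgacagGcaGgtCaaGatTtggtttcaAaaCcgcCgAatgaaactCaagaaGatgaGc
Identity over the homeobox was 80.6% between Hoxa10 and Hoxc10, 78.9% between Hoxa10 and Hoxd10 and 82.8% between Hoxc10 and Hoxd10. Over whole transcripts, Hoxa10 and Hoxd10 had no identical stretch longer than 14 bases. Reads were 76 bases long, and the authors trimmed 7 bases at the 5′ end and bases of low quality at the 3′ end. None of the 42 paralog pairs in different clusters shared a stretch of 69 bases, the length after the 5′ trimming alone. The longest shared stretch was 50 bases, between Hoxb9 and Hoxc9. Reads that the 3′ trimming made shorter than 69 bases were not examined. Within clusters, Hoxc5 shared 168 bases with Hoxc10 and Hoxd3 shared 388 bases with Hoxd4. Reads within those stretches do not tell the genes of each pair apart.

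The 250 bases before the annotated starts of Hoxa10 and Hoxd10 are shown for the same reason, to set the windows before the most abundant and a silent paralog side by side. They were taken from RefSeq on GRCm38.p6, which lists 2 starts for Hoxa10, and none of the 3 windows overlaps an exon of GENCODE M21. Sequences are on the gene's strand and capitals mark CpG dinucleotides, the site of DNA methylation. The windows are Hoxa10 at chr6:52240855-52241104 (minus strand) and chr6:52234940-52235189 (minus strand, inside the longer gene model), and Hoxd10 at chr2:74691641-74691890 (plus strand).
Hoxa10, upstream start: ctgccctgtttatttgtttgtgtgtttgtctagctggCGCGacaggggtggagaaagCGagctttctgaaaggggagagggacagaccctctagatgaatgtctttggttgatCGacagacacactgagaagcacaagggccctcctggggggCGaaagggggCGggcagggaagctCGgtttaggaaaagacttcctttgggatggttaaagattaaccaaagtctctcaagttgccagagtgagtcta
Hoxa10, downstream start: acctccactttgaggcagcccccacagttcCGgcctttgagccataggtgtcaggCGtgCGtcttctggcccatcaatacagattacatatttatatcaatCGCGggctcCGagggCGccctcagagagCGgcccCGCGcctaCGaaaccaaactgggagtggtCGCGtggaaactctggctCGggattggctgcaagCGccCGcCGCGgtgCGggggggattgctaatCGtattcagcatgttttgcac
Hoxd10: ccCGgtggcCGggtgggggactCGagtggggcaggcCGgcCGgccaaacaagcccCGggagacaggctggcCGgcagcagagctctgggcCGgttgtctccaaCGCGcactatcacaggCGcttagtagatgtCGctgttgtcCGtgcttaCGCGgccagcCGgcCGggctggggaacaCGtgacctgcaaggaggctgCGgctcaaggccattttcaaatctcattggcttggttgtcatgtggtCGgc
The windows of Hoxa10 held 7 and 20 CpGs and that of Hoxd10 held 20. The median was 6 over all 32851 windows of the RefSeq table, and 12.5 over the 24 windows of the 22 Hox genes listed there. It was 13 over the 15 windows of members counted in every library (range 3 to 35) and 12 over the 9 windows of the other members (range 2 to 31), so the number of CpGs did not separate them. The letters CCAAT, searched on both strands, occurred in 14 of the 24 Hox windows and in 33.9% of all windows, and TATAAA in 4 of the 24 and in 12.4%. Hoxd10 and the downstream start of Hoxa10 have CCAAT on the opposite strand only, printed above as ATTGG. Of the 3 windows, only that of the downstream start of Hoxa10 has TATAAA, also on the opposite strand (printed as TTTATA). These are matches of letters, and their use as promoter elements was not tested. The counts are per gene and do not tell the starts of Hoxa10 apart.

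MSPCs had reads from a broad but incomplete set of Hox genes. A count above 0 in every library was found for 24 of the 39 members (61.5%), beside 54.0% of all protein-coding genes and 27.7% of all genes. By cluster these were, on chromosome 6, 11 of 11 Hoxa genes, on chromosome 11, 3 of 10 Hoxb genes (Hoxb2, Hoxb3 and Hoxb4), on chromosome 15, 7 of 9 Hoxc genes (all but Hoxc12 and Hoxc13) and on chromosome 2, 3 of 9 Hoxd genes (Hoxd3, Hoxd8 and Hoxd9). By position they were 6 of 8 members of paralog groups 1 to 3, 10 of 15 of groups 4 to 8 and 8 of 16 of groups 9 to 13. With a minimum of 10 counts in every library, 22 members remained, without Hoxa2 and Hoxd3.

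**Figure D1:**
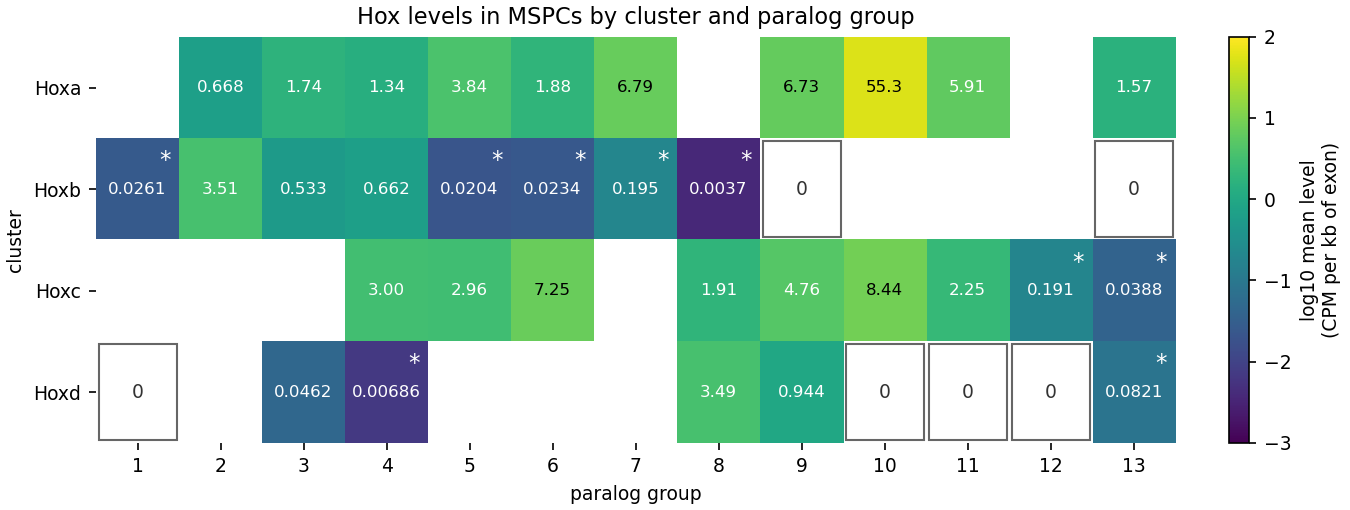
Mean level over 8 libraries of each Hox gene, in CPM (counts scaled to library size) per kb of exon, by cluster (rows) and paralog group (columns). Color gives the log10 of the printed level, an asterisk marks members with a count of 0 in at least 1 library, framed zeros mark members at 0 in every library, and blank cells are positions without a gene or not reported here. Hoxa10 is highest at 55.3, and the framed zeros are Hoxb9, Hoxb13, Hoxd1, Hoxd10, Hoxd11 and Hoxd12.

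Hoxb9, Hoxb13, Hoxd1, Hoxd10, Hoxd11 and Hoxd12 had a count of 0 in all 8 libraries. A count of 0 allows up to 3 counts per library, and with that limit Hoxd10 was at least 1131-fold lower than its paralog Hoxa10 and at least 19.3-fold lower than its neighbor Hoxd9 on the scale of CPM per kb. Hoxd11 was at least 44.8-fold and Hoxd12 at least 26.9-fold lower than Hoxd9. These limits cover counting error only. Exons of Hoxd10 and Hoxd11 overlap only those of Gm28309, which was also at 0 in all 8 libraries, and no exon of Hoxb9, Hoxb13, Hoxd1 or Hoxd12 overlaps another gene. The Hoxd cluster thus had counts at Hoxd8 and Hoxd9 in every library and none at the next 3 genes toward its posterior end.

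The other 9 members were counted in 1 to 7 libraries, with at most 31 counts in a library. Hoxb7 (largest count 25) and Hoxc12 (13) were counted in 6 libraries, Hoxb5 (9) in 3, and Hoxc13 (19) and Hoxd13 (31) in 2. Hoxb1 (15), Hoxb6 (12), Hoxb8 (3) and Hoxd4 (5) were counted in 1 library. For these members a share of exon reads could be lost to overlapping genes only for Hoxd4, of whose exon bases 52.3% are shared, and Hoxb5 and its antisense gene, which share 100 bases.

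Levels between genes were compared as TMM-scaled CPM per kb of exon (TMM is edgeR's scaling of library sizes). The summed level of all 39 members was 127 ± 11.4 (SD, n = 8), of which the Hoxa cluster made up 68.2% ± 3.72, Hoxc 24.3% ± 2.84, Hoxb 3.95% ± 1.14 and Hoxd 3.59% ± 0.650. The ranges of Hoxa (60.3 to 72.3%) and Hoxc (20.9 to 30.7%) overlapped with no other cluster, whereas Hoxb (2.69 to 5.65%) and Hoxd (2.72 to 4.39%) overlapped. Paralog groups 1 to 3 made up 6.25% ± 1.09, groups 4 to 8 made up 26.2% ± 2.62 and groups 9 to 13 made up 67.5% ± 2.91. Paralog group 10 alone had 50.01% of the summed level.

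Hoxa10, a posterior gene known with its paralogs for specifying lumbar vertebrae and the upper segment of the hindlimb, was the most abundant member in every library. Its level was 62.9, 54.8, 55.8 and 52.7 in CTR1 to CTR4 and 50.2, 51.6, 44.3 and 70.1 in cKO1 to cKO4. Its mean of 55.3 ± 7.98 (SD, n = 8) ranked 774th among the 52489 genes with a length. It was 6.68 ± 1.23 times the level of Hoxc10, the next member, with 4.20 as the lowest ratio in a library, and the 2 ranges did not overlap. With coding length in place of exon length, Hoxa10 was still highest and Hoxa9 was next, at a ratio of 3.16 ± 0.347. Without Hoxa10, groups 9 to 13 made up 42.9% ± 3.89 of the remaining summed level.

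The other posterior members formed a gradual series. Hoxc10, the paralog of Hoxa10, was at 7.98, 7.87, 8.25 and 6.99 in the CTR libraries and 9.16, 7.05, 10.5 and 9.66 in the cKO libraries, with a mean of 8.44. Hoxa9, which acts with its paralogs in limb and blood formation, was at 7.03, 6.25, 5.68 and 7.12 in CTR and 5.83, 6.26, 5.48 and 10.2 in cKO libraries, with cKO4 set apart from the other 7. Hoxa11, needed with Hoxd11 for the middle segment of the limb, was at 6.32, 7.28, 6.19 and 7.22 in CTR and 4.07, 4.50, 4.99 and 6.70 in cKO libraries. Its paralog Hoxc11 was lower in all 8 libraries (mean 2.25), and Hoxd11 was at 0. Hoxc9, active in the trunk, was at 4.01, 4.23, 6.56 and 3.33 in CTR and 3.67, 5.70, 6.24 and 4.35 in cKO libraries. Hoxd9 was the lowest of the 3 detected members of paralog group 9, at 1.18, 0.962, 0.436 and 1.14 in CTR and 0.803, 1.24, 1.09 and 0.694 in cKO libraries, below Hoxa9 and Hoxc9 in 8 of 8 libraries.

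Paralog group 13, which patterns hands, feet and the end of the trunk, was near the bottom of the series. Hoxa13 had 64, 362, 250 and 153 counts in CTR1 to CTR4 and 69, 53, 35 and 50 in cKO1 to cKO4. Hoxd13, its paralog in the Hoxd cluster, had 31 counts in CTR3, 25 in CTR4 and 0 in the other 6 libraries. Hoxc13 had 19 counts in CTR2 and 7 in cKO4, and Hoxb13 had 0 throughout. The 3 libraries with the most Hoxa13 counts thus include both libraries with Hoxd13 counts.

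Among the middle members, Hoxc6 and Hoxa7 were the highest and the most even. Hoxc6, a gene of the thoracic region, was at 8.72, 7.49, 6.58 and 7.33 in CTR and 7.15, 6.91, 7.14 and 6.71 in cKO libraries, with a coefficient of variation of 9.18%. Hoxa7 was at 7.85, 7.18, 7.25 and 5.84 in CTR and 6.79, 6.81, 5.68 and 6.88 in cKO libraries (10.6%). Hoxd8, the main Hoxd transcript, was at 4.69, 4.01, 2.63 and 3.42 in CTR and 4.50, 2.44, 2.78 and 3.47 in cKO libraries. Hoxa5, known for its role in lung development and the axial skeleton, had a mean of 3.84, and Hoxc5 of 2.96. Hoxc8 (1.91), Hoxa6 (1.88) and Hoxa4 (1.34) followed. In the Hoxb cluster the genes from Hoxb5 to Hoxb8 all missed a count in some library, while Hoxb4, known from blood stem cells, was low but present, at 0.530, 0.382, 1.20 and 0.636 in CTR and 0.931, 0.389, 0.479 and 0.750 in cKO libraries.

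Among the anterior members, which pattern the hindbrain and neck, Hoxb2 was highest, at 2.48, 2.54, 4.12 and 2.42 in CTR and 4.16, 3.07, 5.34 and 3.94 in cKO libraries. It was above Hoxb4 in 8 of 8 libraries, by 3.44 to 11.1 times. Hoxb3 was at 0.403, 0.440, 0.533 and 0.403 in CTR and 0.764, 0.637, 0.362 and 0.722 in cKO libraries. The antisense gene Hoxb3os (246 to 768 counts) shares 52.9% of the exon bases of Hoxb3 and 27.3% of those of Hoxb2, and the strand setting of the counting is not stated, so that reads of these genes may be mixed. Hoxa3 had a mean of 1.74 and Hoxa2 of 0.668. Hoxd3 was the lowest of the 24, with 27, 3, 4 and 2 counts in CTR1 to CTR4 and 2, 5, 4 and 3 in cKO1 to cKO4, and its range lay wholly below that of Hoxb3. Other genes share 62.85% of the exon bases of Hoxd3, so that some of its reads may be missing from its level. CTR1, which had 27 counts of Hoxd3, was also the only library with a count of Hoxb1 or Hoxd4.

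**Figure D2:**
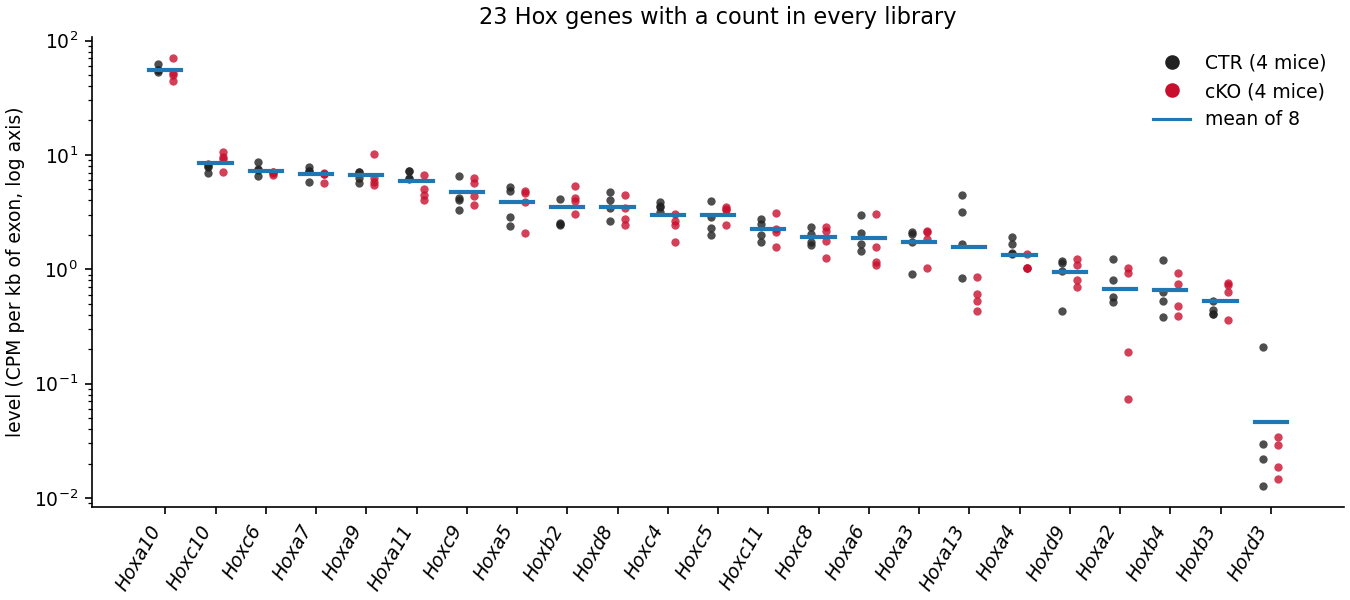
Level of 23 of the 24 Hox genes with a count in every library, in CPM per kb of exon on a log axis, ordered by mean. Points are libraries (black CTR, red cKO, 4 mice each) and blue lines are means of 8. Hoxa10 stands above all others, the members from Hoxc10 to Hoxb3 overlap with their neighbors in the order, and Hoxd3 lies below the gap after Hoxb3.

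In the order of levels, neighboring members from Hoxc10 to Hoxb3 overlapped in range. The order of such neighbors is therefore not resolved beyond the spread between mice. Members further apart could separate, as Hoxc10 (6.99 to 10.5) did from Hoxb3 (0.362 to 0.764). The coefficient of variation over the 8 libraries ran from 9.18% for Hoxc6 to 143% for Hoxd3. Hoxa13 had the second largest value, 94.4%.

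No member passed the threshold between genotypes in edgeR, the main test here, whereas 1 (Hoxa13) did in DESeq2, as given below. With edgeR's quasi-likelihood test and Benjamini-Hochberg adjustment over 14598 genes, 0 of the 24 Hox genes tested had an adjusted p under 0.05, as had 0.0% of all genes. At an unadjusted p under 0.05 there was 1 of 24 (Hoxa13, lower in cKO), beside 4.43% of all genes tested, or 2.08% when only genes lower in cKO are counted. Log2 fold changes of cKO against CTR were below 0 for 13 of 24 and for 50.2% of all genes. Their median was -0.05 for the Hox genes and -0.0013 for all genes, with a median absolute value of 0.17 and 0.14. By cluster the estimate was below 0 for 7 of 11 Hoxa, 1 of 3 Hoxb, 3 of 7 Hoxc and 2 of 3 Hoxd genes. By position it was below 0 for 2 of 6 tested members of groups 1 to 3, 8 of 10 of groups 4 to 8 and 3 of 8 of groups 9 to 13. The median standard error over the members was 0.29, and estimates well above it also missed the threshold, among them those of Hoxa13, Hoxc4 and Hoxb2 given below.

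**Figure D3:**
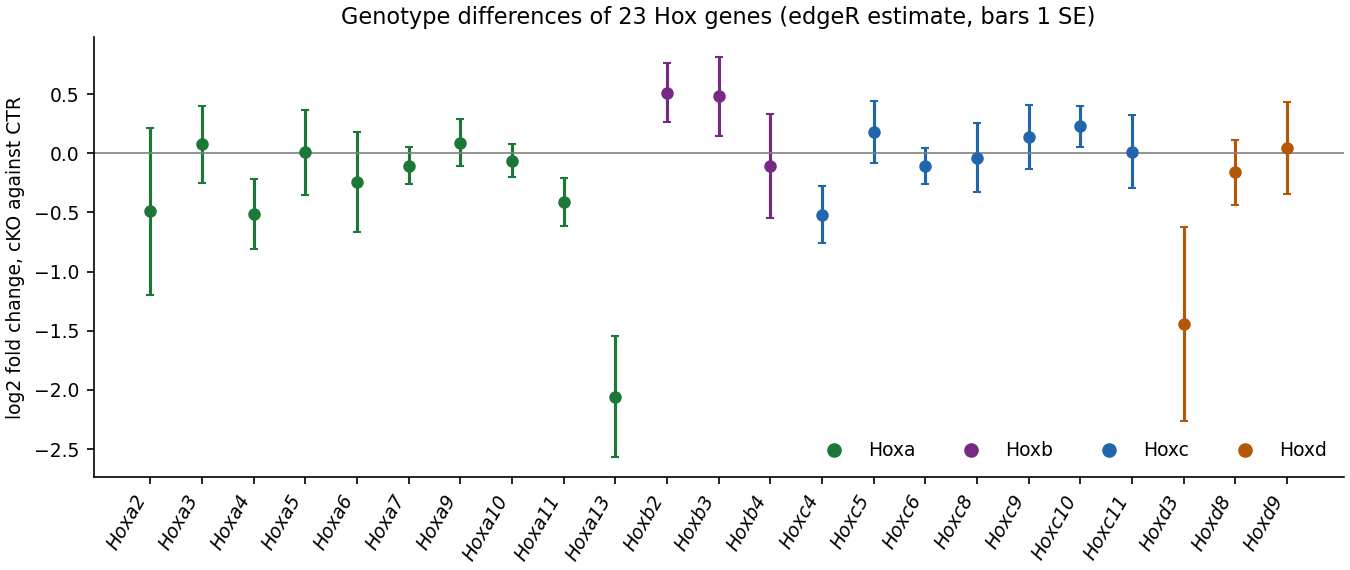
Log2 fold change of cKO against CTR for 23 of the 24 Hox genes tested, as estimated by edgeR over 8 libraries. Bars are 1 standard error and colors give the cluster. Hoxa13 is lowest at -2.06, Hoxd3 follows at -1.44 with the widest bar, and the others lie within -0.52 to 0.51.

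Hoxa10 was at 56.5 ± 4.43 in CTR and 54.1 ± 11.2 in cKO libraries (CPM per kb, SD, n = 4 each). The share of groups 9 to 13 in the summed level was 67.8% ± 1.90 in CTR and 67.2% ± 3.99 in cKO libraries, and that of the Hoxa cluster was 69.5% ± 1.09 and 66.8% ± 5.10. The share of the Hoxb cluster was 3.30% ± 1.07 and 4.59% ± 0.887. Within the posterior groups, groups 9 and 10 made up 58.6% ± 1.65 in CTR and 60.8% ± 3.33 in cKO libraries, and groups 11 to 13, which include Hoxa13, made up 9.22% ± 1.86 and 6.49% ± 0.779. Groups 1 to 3 made up 5.51% ± 0.493 and 6.99% ± 1.02. The ranges of each of these shares overlapped between the genotypes, that of groups 11 to 13 through CTR1 and that of groups 1 to 3 through cKO4.

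Hoxa13 had the largest estimate, -2.06 (SE 0.51), with an unadjusted p of 0.00238 and an adjusted p of 0.999 in edgeR. Its counts, given above, overlapped, since CTR1 (64) lay below cKO1 (69) while the other 3 CTR libraries lay above all cKO libraries. In CPM it was 6.26 ± 4.00 in CTR and 1.50 ± 0.446 in cKO libraries (SD, n = 4 each). The difference in mean log2 CPM was -2.19 within title numbers 26 to 32 and -1.36 within 67 to 86. Leaving out each library in turn gave estimates from -2.35 to -1.63, with adjusted p from 0.670 to 0.99998 in edgeR. DESeq2 called Hoxa13, with an adjusted p of 0.0241 in the Wald test and 0.0377 in the likelihood ratio test that also had a term for the title range. These tests called 0.158% and 0.322% of the genes, and over all alternatives the adjusted p of Hoxa13 ranged from 0.0241 to 0.99998. The study's own genotype test was also a DESeq2 likelihood ratio test, corrected for a batch that its methods do not name. Hoxa13 lies on chromosome 6 from 52257694 to 52260880 (GRCm38, minus strand), and no exon base of it is shared with another gene.

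Hoxd13 was outside the test, as it was not counted in every library, and both libraries with a count were CTR. Without the filter on counts edgeR gave it an unadjusted p of 0.0244 and an adjusted p of 0.749, and no fold change is given against a group at 0. Of marker lists, the summed level of 6 smooth muscle and pericyte genes was 26.1 to 66.1 CPM in CTR and 13.4 to 43.3 in cKO libraries, with Rgs5 at 317 to 1070 and 103 to 563 counts and Cnn1 at 0 in 7 of 8 libraries. That of 6 chondrocyte genes, where Acan and Matn1 were at 0, was 68.5 to 117 and 55.3 to 96.7 CPM. That of 6 fibroblast genes was 310.3 to 431 and 242 to 364 CPM, nearly all of it Dcn, with Dpt, Cd34 and Clec3b at 0. That of 6 neural and Schwann cell genes was 39.3 to 45.1 and 49.0 to 51.1 CPM, nearly all of it S100b, with Snap25 at 0 and Sox10 at 0 in 7 libraries. The summed level of 24 hematopoietic genes was 249 to 329 and 250.4 to 344 CPM. Of its 11 genes tested, 9 had an estimate above 0 for cKO (median 0.39, beside -0.0013 for all genes) and 0 passed the threshold. Kit, the receptor of SCF, had the smallest unadjusted p of that list (-1.48, SE 0.27, unadjusted p = 0.000258, adjusted p = 0.894 in edgeR), at 9.01, 17.7, 13.3 and 18.2 CPM per kb in CTR and 4.49, 3.92, 4.52 and 7.90 in cKO libraries. Ptprc was at 0 in 4 libraries, and Cd3e and Cd34 were at 0 in all. Their part in the values of Hoxa13 and Hoxd13 was not tested.

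**Figure D4:**
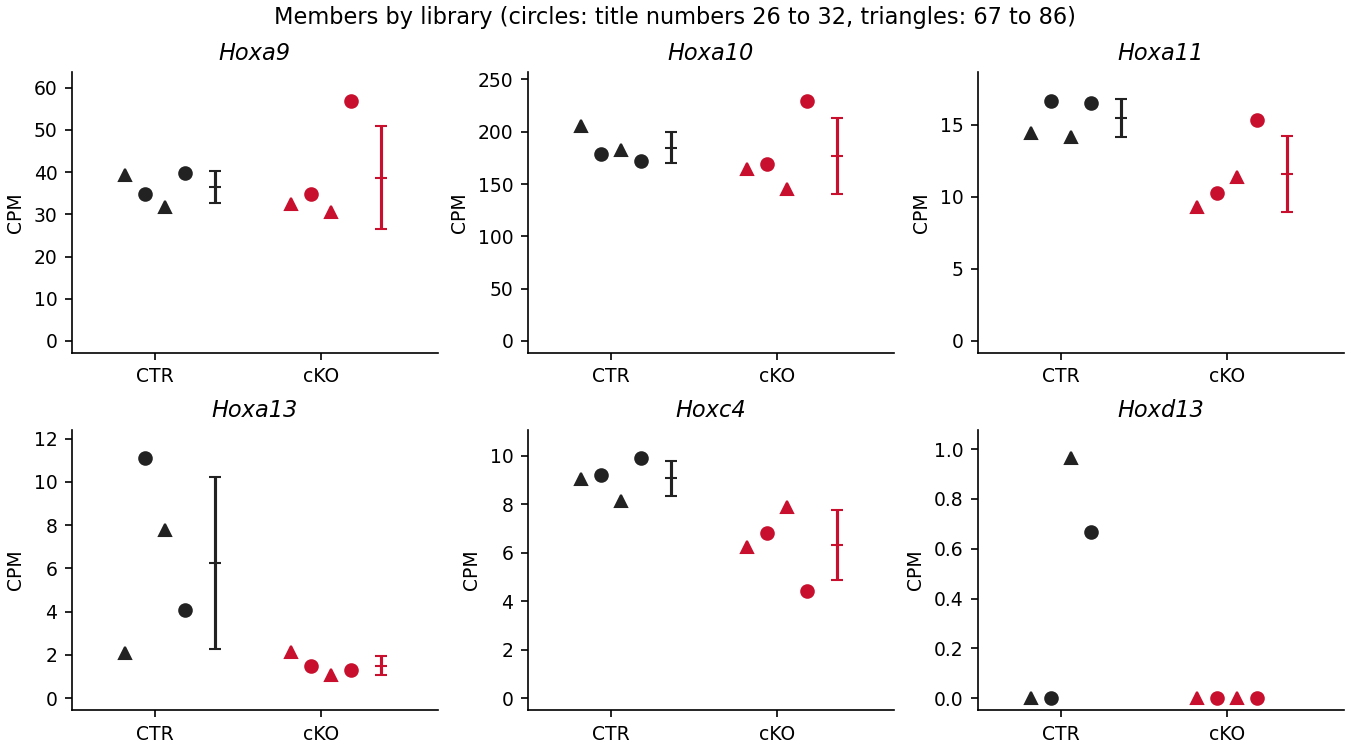
TMM-scaled CPM of 6 Hox genes in each library, by genotype (black CTR, red cKO, 4 mice each). Circles are libraries with title numbers 26 to 32 and triangles those with 67 to 86, and bars give the mean ± SD (none for Hoxd13, which was at 0 in 6 libraries). Hoxc4 is the only member whose groups do not overlap, and Hoxa13 overlaps only through CTR1.

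Hoxc4 was the only one of the 24 members whose 4 cKO libraries lay entirely below the 4 CTR libraries, beside 1.29% of all genes tested that were lower and 2.62% that were separated in either direction. Its level was 3.53, 3.58, 3.17 and 3.86 CPM per kb in CTR and 2.43, 2.65, 3.06 and 1.72 in cKO libraries, with an estimate of -0.52 (SE 0.24, adjusted p = 0.999 in edgeR). Hoxa11 was lower in 3 of the 4 cKO libraries than in any CTR library, with cKO4 overlapping (-0.41, SE 0.20, adjusted p = 0.999 in edgeR). The antisense gene Hoxa11os shares 34.98% of its exon bases and was at 145 to 254 counts (CTR) and 83 to 178 (cKO) (-0.59, SE 0.30). Hoxb2 was higher in cKO by 0.51 (SE 0.25, adjusted p = 0.999 in edgeR), with CTR3 within the cKO range. The estimate for Hoxd3, -1.44 (SE 0.82), rested on the 27 counts of CTR1 and was 0.18 without it.

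Between the ranges of title numbers, 0 of the 24 Hox genes had an adjusted p under 0.05 (0.0137% of all genes) and 0 had an unadjusted p under 0.05 (11.6% of all genes) in edgeR with genotype as a term. The ranges did not separate the libraries for any of the 24, beside 6.87% of all genes. The smallest unadjusted p were those of Hoxb2 (0.43, SE 0.22, higher in 67 to 86), Hoxd3 (1.37, SE 0.79), Hoxa9 (-0.31, SE 0.18), Hoxa11 (-0.26, SE 0.19) and Hoxb4 (0.53, SE 0.43), with adjusted p from 0.496 to 0.662. The interaction of genotype and title range passed the adjusted threshold for 0 of the 24 members and 0.0% of all genes, and an unadjusted p under 0.05 for 0 of the 24 and 3.44% of all genes.

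The proteins that bind DNA with Hox proteins were present. Of 9 TALE genes 8 were counted in every library, led by Meis3 (13.7 CPM per kb) and Pbx2 (8.60). None of the 8 passed the threshold between genotypes or title ranges. Meis2 had the smallest unadjusted p between genotypes (0.63, SE 0.30, adjusted p = 0.999 in edgeR).

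Of 21 Polycomb genes 20 were counted in every library, with Phc2 (22.8 CPM per kb) and Rnf2 (20.1), 2 parts of the complex that ubiquitinates histone H2A, as the highest. All 12 Trithorax and related genes were counted in every library, led by Dpy30 (24.9) and Men1 (15.5), subunits of histone H3 methyltransferase complexes. Between genotypes, 0 of the 20 and 0 of the 12 passed the threshold in edgeR. Phc3 had the smallest unadjusted p of the former (-0.71, SE 0.33) and Kdm6b, a demethylase that removes the Polycomb mark, of the latter (-0.43, SE 0.18, both adjusted p = 0.999). Between title ranges the smallest were those of Cbx6 (0.14, SE 0.08) and Kmt2a (-0.49, SE 0.22), and 0 passed in either list.

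Of 16 genes for axial and retinoid signals, which activate Hox clusters in the embryo, 8 were counted in every library. Aldh1a2, an enzyme that makes retinoic acid, was the highest (86.4 CPM per kb), ahead of the receptor Rxra (21.2). The Cdx genes, which activate central Hox genes in the embryo, were at 0 (Cdx1 and Cdx4) or at 0 to 11 counts (Cdx2). Of the degrading enzymes, Cyp26a1 and Cyp26c1 were at 0. Cyp26b1 had 0 counts in every CTR library and 15, 0, 34 and 8 in cKO1 to cKO4, and was outside the test. Aldh1a2 had 4481, 6764, 15037 and 9453 counts in CTR1 to CTR4 and 4309, 4117, 3190 and 5596 in cKO1 to cKO4. It was lower in cKO by an estimate of -1.12 (SE 0.31, unadjusted p = 0.00441, adjusted p = 0.999 in edgeR), with CTR1 inside the cKO range as for Hoxa13. Between title ranges Rarg had the smallest unadjusted p (0.21, SE 0.12, adjusted p = 0.537), and 0 of the 8 passed in either comparison.

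Other transcription factors that mark position in limb and trunk were compared with the Hox pattern. Of 34 genes 21 were counted in every library, among them Irx3 (31.0 CPM per kb). Pitx1, which specifies the hindlimb, had 745 to 1315 counts, and its target Tbx4 had 59 to 220. Tbx5, the corresponding factor of the forelimb, had 0, 41, 0 and 19 counts in CTR and 0, 11, 25 and 55 in cKO libraries. Pitx1 was thus above Tbx5 per kb in 8 of 8 libraries. The methods name the flushed bones only as long bones. Evx1 and Evx2, neighbors of the Hoxa and Hoxd clusters at their posterior ends, were at 0. Between genotypes 0 of the 21 passed the threshold, with Prrx2 at the smallest unadjusted p (-0.998, SE 0.456, adjusted p = 0.999 in edgeR), and between title ranges 0 passed, with Tbx4 at the smallest (-0.76, SE 0.32, adjusted p = 0.414).

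**Figure D5:**
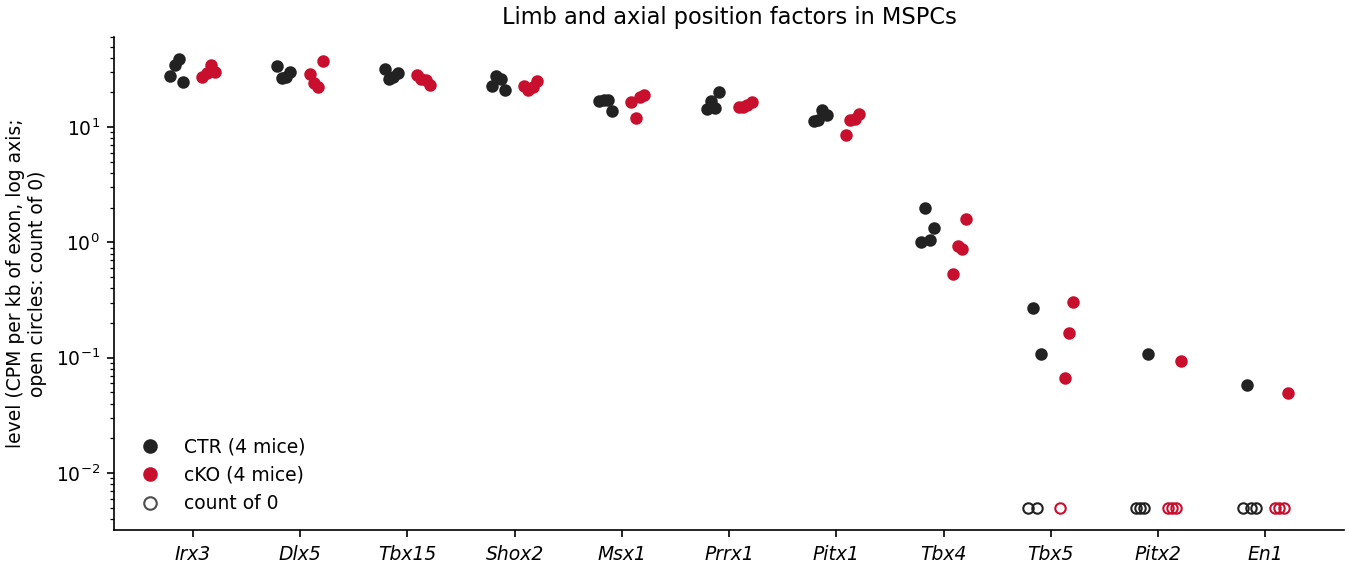
Level of 11 limb and axial transcription factors in each library, in CPM per kb of exon on a log axis (black CTR, red cKO, 4 mice each). Open circles at the bottom stand for a count of 0. The hindlimb factor Pitx1 lies above Tbx4, and the forelimb factor Tbx5 is lower with 0 counts in 3 libraries.

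Noncoding genes inside the clusters were examined by the same measure. Of 17 genes with a match in the table, 7 were counted in every library and 8 were at 0 throughout. Hotairm1, in the Hoxa cluster, was the highest (5.12 CPM per kb, 122 to 272 counts), ahead of Hoxb3os (3.48). Hotair, in the Hoxc cluster, had 4 to 31 counts. Hottip, beside Hoxa13, and Haglr, in the Hoxd cluster, were at 0 in 8 of 8 libraries. Polyadenylated RNA was selected, which bears on the microRNA genes in this list, 4 of which were at 0. Neither comparison called any of the 7, and the smallest unadjusted p were those of Hoxa11os between genotypes, given above, and Hoxd3os1 between title ranges (-0.51, SE 0.31, adjusted p = 0.557 in edgeR).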

How the data were processed

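RNA was measured in MSPCs of 4 CTR and 4 cKO mice. Per the methods, reads were trimmed, mapped to GRCm38 (mm10) by HISAT2 and assigned to genes by HTSeq-count, and the authors deposited these raw counts without normalization. The strand setting is not given in the sources used here. The study's own genotype test was DESeq2's likelihood ratio test with a batch correction, whereas edgeR was the main test here. Identifiers were matched to GENCODE M21, a release other than that named in the methods, for symbols, exon lengths and overlaps, and 52403 of 52636 matched.

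The 14598 genes counted in all libraries entered the tests, made with edgeR 4.0.16 in R 4.3.3 (TMM, glmQLFit, glmQLFTest, Benjamini-Hochberg, threshold 0.05) over all 8 libraries, by genotype, by title number group with genotype as a term, and by their interaction. Standard errors (SE) were taken from the estimate and the F statistic, and fold changes are log2 values. Within title ranges, differences are of mean log2(CPM + 0.1). Each mouse is 1 replicate, with no pair of libraries alike within sampling noise. The depth of 31047344 to 38216877 counts puts the limit of 3 counts at 0.0785 to 0.0966 CPM. Alternatives were DESeq2 1.42.0 size factors, Wald and likelihood ratio tests, upper quartile scaling, other filters, limma-voom (limma 3.58.1), a term for the title range, the replicate number as a block, other gene lengths, and each library left out.

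The members, the gene lists and the split by title number were chosen with earlier results of these data known. Values per library are given for the 3 most abundant members of each cluster and the 5 members with the smallest p in each comparison. From each other list the text names the 2 most abundant genes and the smallest p in each comparison, and some of these genes are not reported here. Tbx4, Tbx5, Pitx1, the Cdx, Cyp26 and Evx genes, Hotair, Hottip, Haglr, the cell type markers and the members of intermediate level were named outside this rule, after their values were seen.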

Additional observations from a re-analysis of the deposited data

Results flagged for a closer look

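In 58 groups of 4 libraries, formed by the 24 tested members and 5 shares in each genotype, a library stood apart from the other 3 by more than Dixon's 95% criterion in 7, where chance alone gives about 1 in 20 (2.9). That rate holds for normally spread values, and the groups are not independent, as Hoxb2 makes up most of the Hoxb share. The 7 are therefore not read as an excess. The value is the gap to the nearest library as a fraction of the group's range. In cKO libraries, cKO4 was highest for Hoxa4 (0.989) and Hoxa9 (0.835), cKO3 was lowest for Hoxa7 (0.927) and cKO2 was lowest for Hoxc5 (0.832). In CTR libraries, CTR3 was highest for Hoxb2 (0.932) and for the share of the Hoxb cluster (0.908), and CTR1 was highest for Hoxd3 (0.914). No further weighing of these values was made.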

How the results depend on the processing

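The number of Hox genes past the threshold between genotypes was 0 under every edgeR and limma-voom setting and 1 (Hoxa13) in DESeq2's Wald test (-2.06, adjusted p = 0.0241) and in its likelihood ratio test that had a term for the title range (-2.03, adjusted p = 0.0377), and the cause of this difference was not tested. Leaving out each library in turn gave 0 for genotype, title ranges and interaction. Hoxd3 lay at -1.81 to 0.18 with each library left out, and it reversed, to 0.18, without CTR replicate 1. The share of the Hoxb cluster moved from 3.95% to 5.10% with exon length not shared with another gene, a length that leaves out the overlap with Hoxb3os. The share of groups 9 to 13 lay between 65.5% and 67.8% under other lengths and groups of libraries, and at 66.8 to 68.2% with each library left out. Over all results, 4 alternative values passed the threshold where the reported value did not. They are the 2 DESeq2 tests above, each listed both as a number of Hox genes and as the estimate of Hoxa13. Of the rest, 1 changed direction (Hoxd3), 1 without a test moved by more than its SD (the share of the Hoxb cluster), and the other 267 showed no such change. The 267 include the number of Hox genes detected, which had neither a test nor an SD. It was 24, beside 22 with at least 10 counts in every library and 33 with a count in at least 1 library. The replicate number as a block gave 0 Hox genes past the threshold (2 at an unadjusted p under 0.05), with Hoxa13 at -1.87. Same-numbered CTR and cKO libraries had correlations of 0.135, 0.179, 0.0848 and 0.0589, with 2 pairs over 0.1. Of the 8 libraries, 7 correlated best with the library of their own number. Title numbers (CTR and cKO) were 78 and 86, 32 and 31, 71 and 67, and 27 and 26 for replicates 1 to 4. Whether these libraries form pairs was not settled, and the main fit had no term for pairs. Depth limits the members with under 10 counts in a library, Hoxa2 and Hoxd3.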
